A study of Mus musculus with 8 samples.

Results

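The 10 genes described here belong to the checkpoint that decides whether a mouse oocyte with damaged DNA lives or dies, and all were found among the 21959 genes with deposited values. They were chosen by name as TRP63, the p53 family protein at the centre of this checkpoint, its relative TRP53, the kinases ATM, ATR, CHEK2 and CHEK1 that signal to them, and the targets Mdm2, Cdkn1a, Bbc3 and Pmaip1. The oocytes came from ovaries of mice at postnatal day 1 (P1), either Rbpms2 knockout (4 libraries) or wild type (4 libraries). Rbpms2 encodes an RNA-binding protein, and the series title names it as a regulator of early oocyte development. Each library was made from a tube of 5 to 10 putative primordial oocytes, picked by mouth pipette after collagenase (2 mg/ml) and trypsin (0.25%) digestion, whose mRNA was amplified for 18 cycles. The labels give no strain, no deleted part of Rbpms2 and no cell type restriction of the knockout, nor the animals behind each tube. The p-values thus cover variation among tubes only, part of which may be technical.

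Oocytes wait in meiotic prophase for a long time, and the checkpoint removes those whose DNA breaks persist. ATM answers double-strand breaks and activates CHEK2, and ATR answers exposed single-stranded DNA and activates CHEK1. Mouse oocytes store an inactive dimer of TAp63, the full-length TRP63 protein. Priming by CHEK2 and further phosphorylation by casein kinase 1 turn it into an active tetramer, which switches on Bbc3 (encoding PUMA) and Pmaip1 (encoding NOXA), activators of apoptosis.

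The members split into transcripts that were nearly absent, lowered, raised and not called in Rbpms2 knockout oocytes. Trp63, Chek2 and Chek1 fell and Mdm2 rose, whereas Trp53, Atm, Atr, Cdkn1a and Pmaip1 did not pass the test. Values are FPKM (fragments per kilobase of exon per unit of sequencing depth), and changes are limma log2 fold changes, knockout minus wild type, of log2(FPKM + 1), which understate the change of low genes. The filter on low values (at least 1 FPKM in at least 4 libraries) was passed by 9 members and not by Bbc3. Of all 11235 genes tested, 43.4% were called at a Benjamini-Hochberg adjusted p under 0.05, 25.6% lower and 17.7% higher, so that the 4 called of 9 tested members (44.4%) are a share near the background. Among the 9 tested members, 5 had no overlap between knockout and wild-type libraries, against 39.9% of all tested genes.

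**Figure D1:**
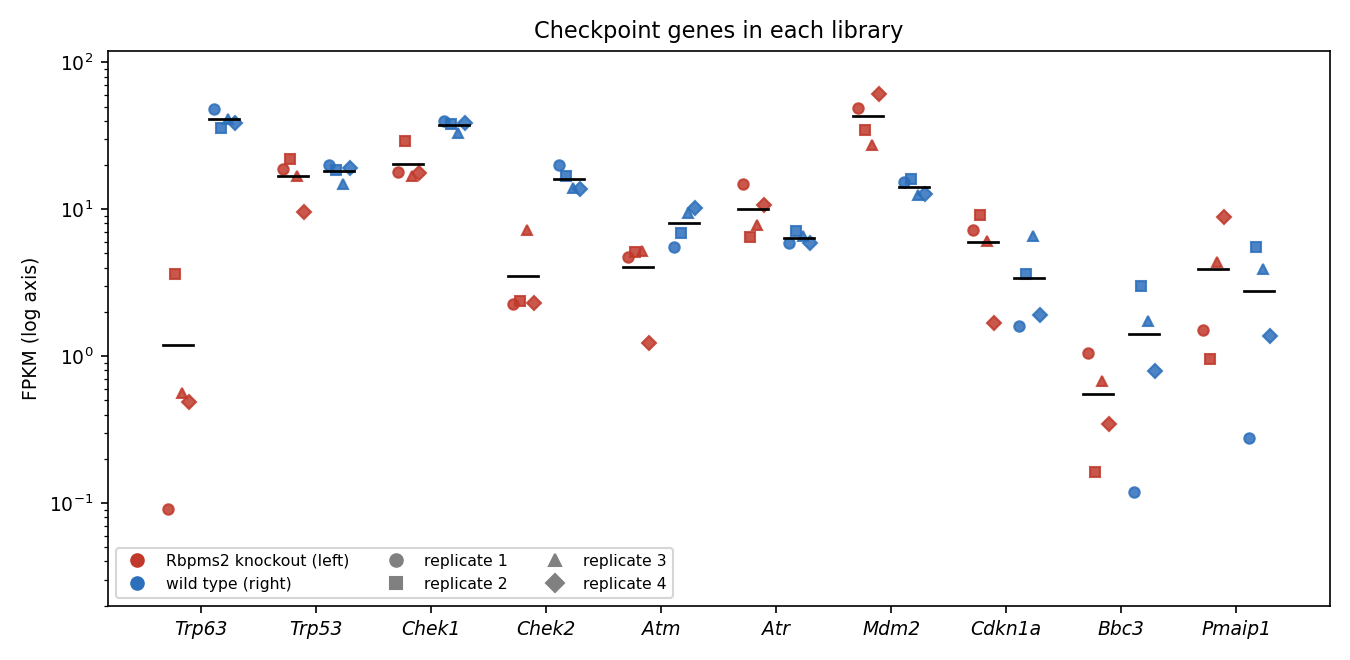
FPKM of the 10 checkpoint genes (log axis) in each of the 4 Rbpms2 knockout libraries (left points of each pair) and 4 wild-type libraries (right points), with black bars at the means. Trp63 stands at 0.0917 to 3.62 FPKM in knockout and 35.9 to 48.0 FPKM in wild type, Mdm2 lies higher in every knockout library, and Trp53 overlaps.

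Rbpms2 itself was lower in every knockout library, with 38.4, 58.3, 31.0 and 42.5 FPKM in knockout replicates 1 to 4 against 158.1, 167.4, 135.8 and 212.8 FPKM in wild-type replicates 1 to 4 (limma adjusted p = 7.26e-05). RNA from any undeleted part of the gene counts in these values. Reads in the listed genes numbered 9554049 to 14526290 per knockout library and 8310403 to 11926442 per wild-type library. All 8 libraries held the germ cell markers Ddx4, Dazl and Sycp3. The summed level of 12 oocyte markers was 1816 to 2892 FPKM in knockout and 6216 to 10249 FPKM in wild type. Ddx4, Dazl and Sycp3 were its 3 higher members, and 9 were lower. Sycp3 stood at 855.9 to 1450 FPKM in knockout and 200.4 to 396.7 FPKM in wild type. Of the 9, Zp3, Gdf9 and Padi6 reached only 0.444, 0.968 and 0.124 FPKM in knockout. Their lowest wild-type levels were 443.8, 142.1 and 828.8 FPKM. Figla, Nobox, Sohlh1, Kit, Dppa3 and Ooep kept at least 4.50 FPKM in each knockout library. Markers of other ovarian cells varied widely between tubes. The summed stromal markers (10 of 10 at 1 FPKM or more in some library of each genotype) ranged from 12.4 to 403.8 FPKM in knockout and from 4.18 to 90.4 FPKM in wild type. Granulosa markers ranged from 11.9 to 420.4 FPKM and from 1.76 to 62.7 FPKM, with 12 of 13 at 1 FPKM or more in some knockout library and 9 of 13 in some wild-type library. Endothelial markers stood at 335.6 FPKM in knockout replicate 1, at 3.93 to 6.89 FPKM in the other knockout libraries and at 1.55 to 2.66 FPKM in wild type. Immune markers ranged from 17.1 to 369.9 FPKM in knockout and from 0.126 to 20.6 FPKM in wild type, with 2 of 5 tested called higher, 8 of 10 at 1 FPKM or more in some knockout library and 3 of 10 in some wild-type library. Erythroid markers ranged from 99.6 to 3212 FPKM in knockout and from 11.9 to 5368 FPKM in wild type. Knockout replicates 2 and 3 and wild-type replicate 3 were the richest in stromal markers of their genotypes. The part of these cells in the results was not tested beyond the values without those 3 libraries, a set that keeps knockout replicate 1 with its endothelial markers. In such pooled material fewer cells of a type and less RNA per cell cannot be told apart.

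Trp63 (ENSMUSG00000022510, chromosome 16, 25683763 to 25892102, GRCm38) was the member with the largest change and fell to near 0 in knockout oocytes. Knockout replicates 1 to 4 had 0.0917, 3.62, 0.560 and 0.486 FPKM, and wild-type replicates 1 to 4 had 48.0, 35.9, 41.3 and 38.5 FPKM. No knockout library came near the lowest wild-type library, and knockout replicate 2 stood above the other knockout libraries. In reads recovered from the steps of the values, the gene had 9, 442, 56 and 39 reads in knockout and 4811, 2990, 2928 and 2691 reads in wild type, so the low values rest on few but countable reads. Mean levels were 1.19 ± 1.63 FPKM in knockout and 40.9 ± 5.22 FPKM in wild type (SD, n = 4 each), 34.4-fold lower as a ratio of means. The log2 fold change was -4.50 with a standard error of 0.40 and a 95% confidence interval from -5.38 to -3.61 (limma adjusted p = 1.66e-05). Among all tested genes 71 fell by more. Knockout replicate 2 was also the knockout library with the highest Rbpms2 level. The same library was the highest knockout library for the oocyte markers Figla, Nobox, Sohlh1, Kit, Dppa3 and Ooep, but not for the other listed ones. A link between these levels was not tested. In the annotation 4 transcripts of Trp63 start at its upstream promoter, which yields the TA proteins stored in oocytes, and 4 at an internal promoter, which yields the shorter ΔN proteins of stratified epithelia. One deposited value per gene covers both, so these classes cannot be told apart here. The summed level of 7 stratified epithelial markers was 5.83 to 48.9 FPKM in knockout and 28.9 to 50.2 FPKM in wild type, with 4 of 7 at 1 FPKM or more in some knockout library and 3 of 7 in some wild-type library. Of the keratin genes in this list, Krt5 was at 0 in all 8 libraries. Krt14 was at 0 in all wild-type libraries and reached 1.07 FPKM in knockout replicate 4. Krt15 had 1.52 and 0.684 FPKM in wild-type replicates 1 and 2 and 0 in all other libraries. Perp, also a p53 family target, was called lower. It had 0.745, 19.9, 7.27 and 1.23 FPKM in knockout replicates 1 to 4 against 35.9, 38.2, 12.9 and 27.4 FPKM in wild-type replicates 1 to 4. The part of epithelial cells in the Trp63 values was not tested.

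Trp53 (ENSMUSG00000059552, chromosome 11, 69580359 to 69591873), which encodes p53 and acts in the response to DNA damage in most tissues, was not called. Knockout replicates 1 to 4 had 18.8, 21.9, 16.8 and 9.51 FPKM, and wild-type replicates 1 to 4 had 20.1, 18.5, 14.8 and 19.0 FPKM. The genotypes overlapped, with both the highest and the lowest library in knockout. Means were 16.7 ± 5.26 FPKM in knockout and 18.1 ± 2.31 FPKM in wild type (SD, n = 4 each). The log2 fold change was -0.16 with a 95% interval from -0.73 to 0.42 (limma adjusted p = 0.655), and its sign turned under other settings, between -0.49 and 0.14. The third family gene, Trp73, had 0 reads in all 8 libraries.

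Set against each other within each library, the 2 expressed family genes changed order. Trp63 had 0.00488, 0.165, 0.0334 and 0.0511 times the FPKM of Trp53 in knockout replicates 1 to 4, against 2.39, 1.93, 2.80 and 2.03 times in wild-type replicates 1 to 4. Trp63 was thus the more abundant of the pair per exon length in every wild-type library and the less abundant in every knockout library. The difference of log2(FPKM + 1) between them was -3.21 ± 0.82 in knockout and 1.13 ± 0.23 in wild type (SD, n = 4 each). These differ by -4.34, with an exact two-sided permutation p of 0.0286, the smallest that 4 against 4 libraries allow.

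**Figure D2:**
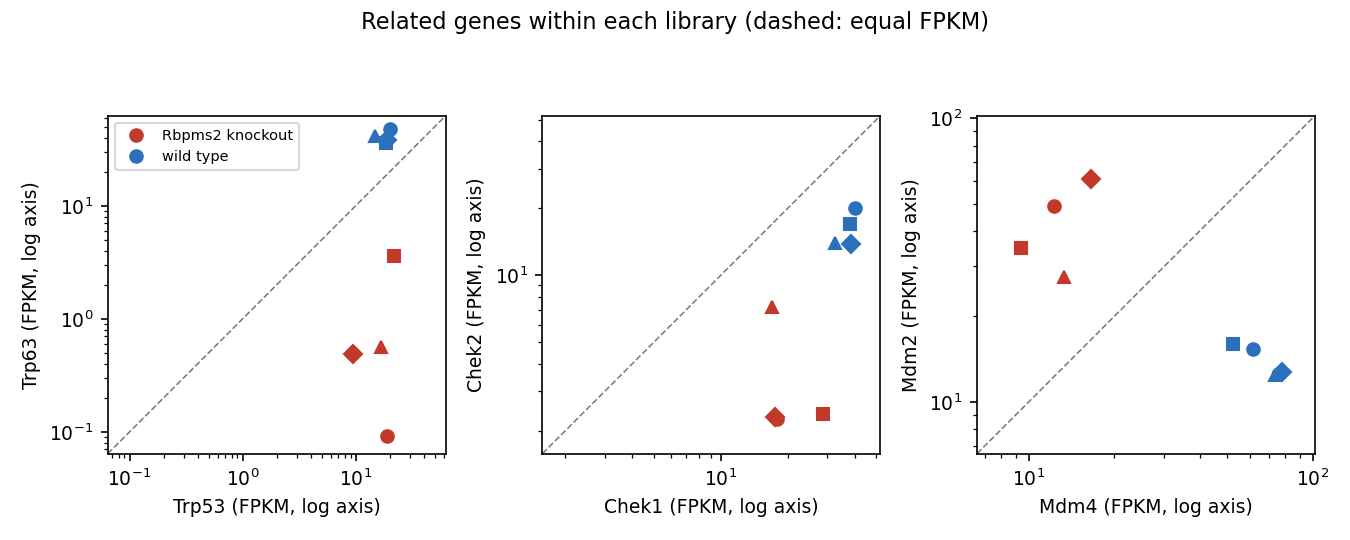
Trp63 against Trp53, Chek2 against Chek1 and Mdm2 against Mdm4, one point per library, both axes in FPKM on a log scale, with the dashed line at equal FPKM. The knockout libraries lie below the line for Trp63 and the wild-type libraries above it, and knockout replicate 3 has a Chek2 to Chek1 ratio of 0.425, within the wild-type range of 0.358 to 0.499.

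Of the apical kinase genes neither was called. Atm (ENSMUSG00000034218, chromosome 9, 53439149 to 53536740), whose kinase responds to double-strand breaks, had 4.73, 5.13, 5.20 and 1.22 FPKM in knockout replicates 1 to 4 and 5.53, 6.87, 9.44 and 10.2 FPKM in wild-type replicates 1 to 4. Every knockout library was below every wild-type library, by a narrow margin between the closest ones. Means were 4.07 ± 1.91 FPKM in knockout and 8.02 ± 2.20 FPKM in wild type (SD, n = 4 each), with a log2 fold change of -0.91 ± 0.37 (SE, limma adjusted p = 0.0678). After each library's trend against transcript GC content was removed (the GC correction), the log2 fold change was -1.43 and the gene was called lower (limma adjusted p = 0.0184). Over all alternatives the adjusted p from limma lay between 0.0184 and 0.168, and the GC correction, with or without the replicate block, was the only one under which Atm was called.

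Atr (ENSMUSG00000032409, chromosome 9, 95857597 to 95951781), whose kinase responds to stalled replication forks and single-stranded DNA, had 15.0, 6.47, 7.81 and 10.6 FPKM in knockout replicates 1 to 4 and 5.89, 7.06, 6.56 and 5.91 FPKM in wild-type replicates 1 to 4. Knockout replicates 1, 3 and 4 were above the wild-type range and replicate 2 was within it. Means were 9.96 ± 3.75 FPKM in knockout and 6.36 ± 0.565 FPKM in wild type (SD, n = 4 each), and the log2 fold change was 0.52, with a 95% interval from -0.08 to 1.12 (limma adjusted p = 0.147). Without the 3 libraries richest in stromal markers it was 0.91 and called higher (limma adjusted p = 0.0304), and without knockout replicate 1, which that fit keeps and which has endothelial markers at 335.6 FPKM, it was 0.32 (limma adjusted p = 0.366). After the GC correction it was -0.12 (limma adjusted p = 0.736), over alternatives with adjusted p from 0.0304 to 0.752. The union of annotated Atr exons is 2.92 times as long as its longest coding transcript, so its FPKM is low for the number of reads.

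Both effector kinase genes fell. Chek2 (ENSMUSG00000029521, chromosome 5, 110839979 to 110874145), whose kinase primes TAp63, had 2.25, 2.38, 7.19 and 2.30 FPKM in knockout replicates 1 to 4 and 20.0, 16.9, 14.0 and 13.8 FPKM in wild-type replicates 1 to 4. Knockout replicates 1, 2 and 4 lay close together, and replicate 3 was higher but still below the wild-type range. Means were 3.53 ± 2.44 FPKM in knockout and 16.2 ± 2.95 FPKM in wild type (SD, n = 4 each), 4.58-fold lower as a ratio. The log2 fold change was -2.03 ± 0.33 (SE, limma adjusted p = 0.000689), and -2.36 without knockout replicate 3, the library with the highest granulosa and immune marker sums (420.4 and 369.9 FPKM). The part of those cells in its higher Chek2 value was not tested.

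The promoter of Chek2 is shown because it was the most strongly lowered member with a window in the RefSeq promoter table. The window, chr5:110839733-110840032 on the + strand of GRCm38.p6, runs from 250 bases before to 50 bases after the start. Capitals mark matches to CCAAT on either strand, the motif bound by the factor NF-Y. Both matches read ATTGG, 155 bases apart. CCAAT was found in 37.4% of 32851 windows of the same length, and 2 or more matches in 11.7%.
Chek2: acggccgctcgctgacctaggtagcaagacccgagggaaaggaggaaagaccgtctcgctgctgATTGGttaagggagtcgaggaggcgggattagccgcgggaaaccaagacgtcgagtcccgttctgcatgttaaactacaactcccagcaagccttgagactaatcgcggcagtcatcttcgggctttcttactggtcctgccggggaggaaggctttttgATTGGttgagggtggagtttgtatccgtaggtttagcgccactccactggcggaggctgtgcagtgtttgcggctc

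Chek1 (ENSMUSG00000032113, chromosome 9, 36708482 to 36727065), whose kinase holds the cell cycle while replication is disturbed and can act on TAp63 in mouse oocytes that lack CHEK2, had 17.9, 28.9, 16.9 and 17.6 FPKM in knockout replicates 1 to 4. Wild-type replicates 1 to 4 had 40.1, 38.2, 32.8 and 38.4 FPKM, and the genotypes did not overlap. Means were 20.4 ± 5.73 FPKM in knockout and 37.4 ± 3.17 FPKM in wild type (SD, n = 4 each), 1.84-fold lower, with a log2 fold change of -0.88 ± 0.21 (SE, limma adjusted p = 0.00692). Its knockout libraries overlapped those of Trp53 in FPKM. Within libraries, Chek2 had 0.126, 0.0824, 0.425 and 0.131 times the FPKM of Chek1 in knockout replicates 1 to 4, against 0.499, 0.443, 0.426 and 0.358 times in wild-type replicates 1 to 4. On the log2(FPKM + 1) scale this difference between the kinases was -2.33 ± 0.85 in knockout and -1.17 ± 0.19 in wild type (SD, n = 4 each). Its change of -1.16 did not pass (exact two-sided permutation p = 0.0857). Without knockout replicate 3 it was -1.56, with an exact permutation p of 0.0286, the smallest that 3 against 4 libraries allow.

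**Figure D3:**
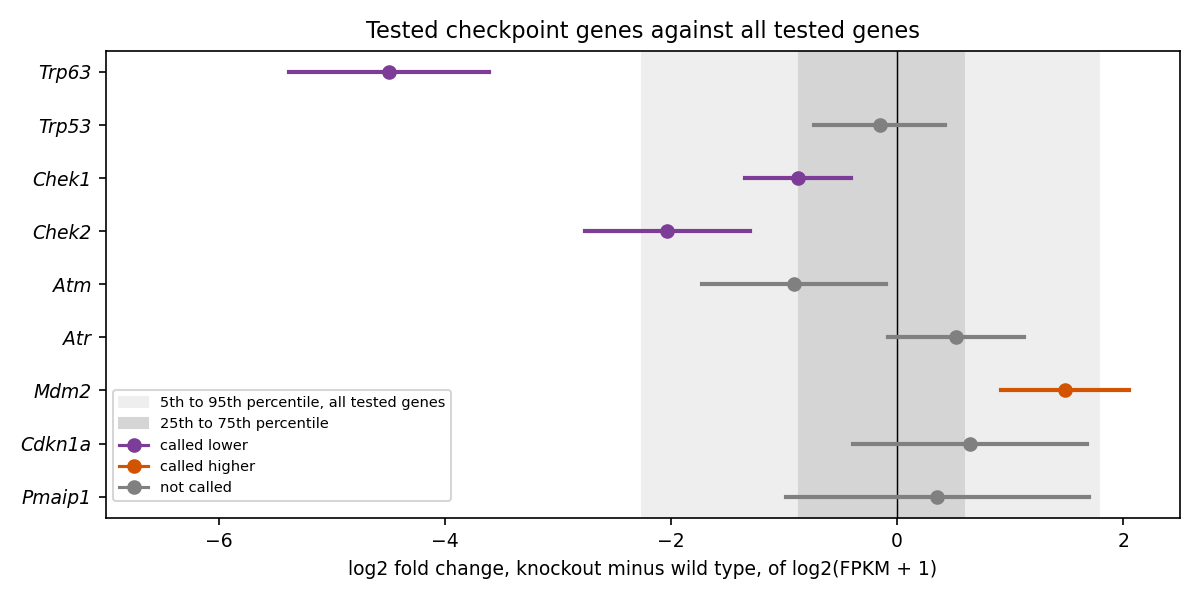
Log2 fold changes (knockout minus wild type, of log2(FPKM + 1)) of the 9 tested checkpoint genes as points with 95% confidence intervals, over bands that hold the middle of all tested genes (25th to 75th and 5th to 95th percentile). Trp63 at -4.50 lies outside the 5th to 95th percentile band, which runs from -2.26 to 1.79, while Chek2 at -2.03 and Mdm2 at 1.48 lie inside it.

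Mdm2 was the single member that rose. Its product is the ubiquitin ligase that marks p53 for destruction, and the gene is itself a p53 target. Mdm2 (ENSMUSG00000020184, chromosome 10, 117688875 to 117710758) had 48.8, 34.8, 27.5 and 61.2 FPKM in knockout replicates 1 to 4 and 15.4, 16.0, 12.4 and 12.8 FPKM in wild-type replicates 1 to 4. The lowest knockout library was well above the highest wild-type library. Means were 43.1 ± 15.0 FPKM in knockout and 14.2 ± 1.80 FPKM in wild type (SD, n = 4 each), 3.04-fold higher, and the log2 fold change was 1.48 ± 0.26 (SE, limma adjusted p = 0.00101). Mdm2 was higher in the knockout libraries with low stromal sums (replicates 1 and 4, 42.7 and 12.4 FPKM of markers) than in those with high sums (replicates 2 and 3, 335.6 and 403.8 FPKM). Without the 3 libraries richest in stromal markers the log2 fold change was 1.83 (limma adjusted p = 0.000714). Knockout replicate 1, which that fit keeps, had endothelial markers at 335.6 FPKM, and without it the log2 fold change was 1.40 (limma adjusted p = 0.00422).

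Cdkn1a (ENSMUSG00000023067, chromosome 17, 29090976 to 29100727), encoding the cell cycle inhibitor p21 and the textbook target of p53, was not called. It had 7.20, 9.08, 6.07 and 1.68 FPKM in knockout replicates 1 to 4 and 1.60, 3.63, 6.54 and 1.89 FPKM in wild-type replicates 1 to 4. The ranges overlapped widely. Means were 6.01 ± 3.14 FPKM in knockout and 3.41 ± 2.26 FPKM in wild type (SD, n = 4 each), with a log2 fold change of 0.64 and a 95% interval from -0.39 to 1.68 (limma adjusted p = 0.285). The summed level of 12 dissociation and stress response genes was 453.0, 1030, 1747 and 67.2 FPKM in knockout replicates 1 to 4 and 79.4, 121.8, 313.1 and 170.6 FPKM in wild-type replicates 1 to 4. Of these genes 10 were tested, with 4 called higher and 1 lower, against 17.7% and 25.6% of all tested genes. Knockout replicate 4 was the lowest knockout library in both Cdkn1a and these genes. Wild-type replicate 1 was the lowest and wild-type replicate 3 the highest wild-type library in both. The highest knockout library differed, replicate 2 for Cdkn1a and replicate 3 for these genes. The part of the stress response in Cdkn1a was not tested.

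The promoter windows of Mdm2 and Cdkn1a are shown as those of 2 p53 targets of which 1 was called. They are chr10:117710709-117711008 on the - strand and chr17:29090729-29091028 on the + strand of GRCm38.p6, from RefSeq, and the Cdkn1a window is that of the upstream of 2 starts. Capitals mark matches to the p53 half-site, searched on both strands. Mdm2 holds 1 match, and 8.36% of the 32851 windows hold at least 1. Cdkn1a holds 2 with 12 bases between them, and a pair with up to 13 bases between its 2 matches was found in 24 windows (0.0731%). The promoter of Mdm2 through which p53 is known to act lies inside the gene, outside this window, and a match to letters does not show binding.
Mdm2: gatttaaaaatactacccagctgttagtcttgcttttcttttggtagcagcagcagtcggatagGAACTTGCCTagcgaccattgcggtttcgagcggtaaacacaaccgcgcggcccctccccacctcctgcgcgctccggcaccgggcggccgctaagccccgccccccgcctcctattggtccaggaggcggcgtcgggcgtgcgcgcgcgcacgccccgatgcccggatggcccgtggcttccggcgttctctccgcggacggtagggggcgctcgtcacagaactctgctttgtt
Cdkn1a: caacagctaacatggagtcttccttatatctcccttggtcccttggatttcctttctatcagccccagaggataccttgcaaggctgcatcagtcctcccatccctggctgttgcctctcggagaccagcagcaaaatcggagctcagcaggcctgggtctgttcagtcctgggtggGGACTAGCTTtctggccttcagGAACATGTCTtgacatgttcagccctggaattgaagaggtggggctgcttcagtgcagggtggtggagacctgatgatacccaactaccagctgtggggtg

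Trp53 had 1 half-site match in its window, and CCAAT was found once each in windows of Mdm2, Trp53, Atm and Bbc3. In all, 8 of the 10 members matched the table, with 11 windows.

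Among 22 tested regulators that act on p53 family proteins, 12 fell, 1 rose and 9 were not called, 59.1% called against 43.4% of all tested genes, of which 25.6% were lower and 17.7% higher. The median log2 fold change was -0.76 against -0.12 over all tested genes. After the GC correction 10 were lower, and 9 with the replicate block as well. Mdm4, the partner of MDM2 that restrains p53, fell to 12.3, 9.39, 13.3 and 16.5 FPKM in knockout replicates 1 to 4, against 61.8, 52.6, 73.8 and 78.3 FPKM in wild-type replicates 1 to 4. Its log2 fold change was -2.29 (limma adjusted p = 2.77e-05), the opposite direction to Mdm2. Usp7, a deubiquitinase that stabilises MDM2 and p53, averaged 19.9 ± 3.57 FPKM in knockout and 70.1 ± 12.6 FPKM in wild type (SD, n = 4 each, log2 fold change -1.76). The acetyltransferase gene Crebbp fell to 10.3 ± 2.75 FPKM in knockout, against 33.3 ± 8.01 FPKM in wild type (SD, n = 4 each). Itch, whose ubiquitin ligase targets TRP63 and TRP73 proteins, was the 1 gene that rose, with 15.0 ± 5.22 FPKM in knockout and 4.43 ± 0.582 FPKM in wild type (SD, n = 4 each, limma adjusted p = 0.00204). The count of regulators called higher was 2 without wild-type replicate 3, without the 3 libraries richest in stromal markers, and after the GC correction, median-of-ratios or quantile scaling.

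Of the 3 casein kinase 1 genes listed, from the family whose products complete TAp63 activation, 2 fell and 1 was not called. Over all tested genes 43.4% were called and 25.6% were lower. Csnk1e averaged 5.24 ± 1.97 FPKM in knockout and 27.0 ± 2.57 FPKM in wild type (SD, n = 4 each), a log2 fold change of -2.23 (limma adjusted p = 0.000136). Csnk1d averaged 13.5 ± 4.47 FPKM in knockout and 24.4 ± 0.135 FPKM in wild type (SD, n = 4 each), a log2 fold change of -0.86 (limma adjusted p = 0.0133). Csnk1a1 was not called, with 45.1 ± 5.86 FPKM in knockout and 49.1 ± 3.53 FPKM in wild type (SD, n = 4 each, log2 fold change -0.12, 95% interval -0.50 to 0.25). It was the most abundant of the 3 per exon length in every library of both genotypes.

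Of the apoptotic targets of TAp63 among the members, Bbc3 was scarce in both genotypes, and Pmaip1 varied widely, up to 8.80 FPKM. Bbc3 (ENSMUSG00000002083, chromosome 7, 16308393 to 16318205) had 1.05, 0.162, 0.672 and 0.345 FPKM in knockout replicates 1 to 4 and 0.118, 2.99, 1.73 and 0.792 FPKM in wild-type replicates 1 to 4. This is 5 to 26 reads per knockout library and 3 to 63 reads per wild-type library, and wild-type replicates spread over almost the whole range. Means were 0.556 ± 0.389 FPKM in knockout and 1.41 ± 1.24 FPKM in wild type (SD, n = 4 each), and the difference of -0.51 on the log2(FPKM + 1) scale had an exact two-sided permutation p of 0.314. Pmaip1 (ENSMUSG00000024521) had 1.50, 0.956, 4.39 and 8.80 FPKM in knockout replicates 1 to 4 and 0.276, 5.53, 3.90 and 1.36 FPKM in wild-type replicates 1 to 4. Libraries of both genotypes spread over the same range. Means were 3.91 ± 3.59 FPKM in knockout and 2.77 ± 2.39 FPKM in wild type (SD, n = 4 each), and the log2 fold change of 0.36 had a 95% interval from -0.98 to 1.70 (limma adjusted p = 0.660). Its sign turned under other settings, between -0.20 and 0.88.

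**Figure D4:**
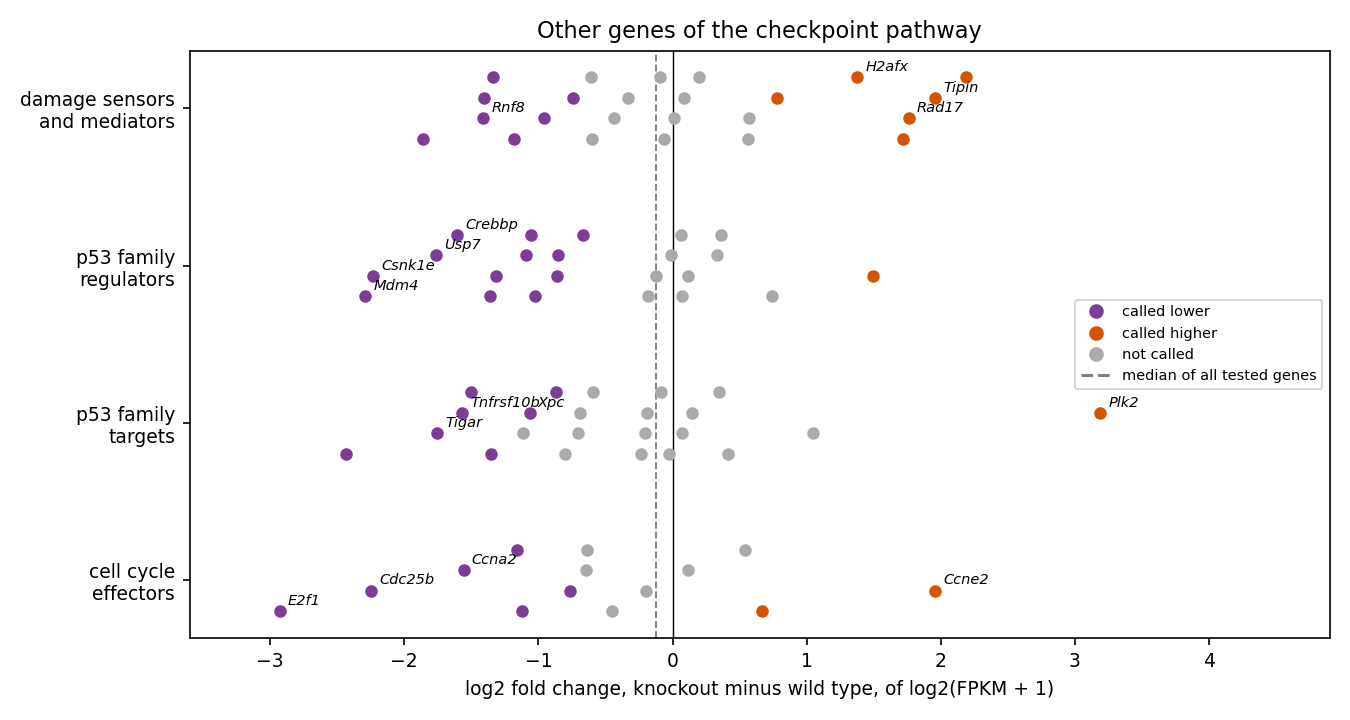
Log2 fold changes (knockout minus wild type, of log2(FPKM + 1)) of the tested genes of 4 related lists, one point per gene, coloured by call. A dashed line marks the median of all tested genes. The list medians, which are not drawn, are -0.76 for regulators, -0.59 for targets, -0.64 for cell cycle effectors and -0.08 for sensors and mediators, against -0.12 over all tested genes.

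Most other target genes of the p53 family were not called. Of 23 tested, 1 rose, 7 fell and 15 were not called, 34.8% called against 43.4% of all tested genes. Tigar, which limits glycolysis, averaged 3.79 ± 1.13 FPKM in knockout and 15.0 ± 2.98 FPKM in wild type (SD, n = 4 each, log2 fold change -1.76, limma adjusted p = 0.000450). The death receptor gene Tnfrsf10b fell to 0.703 ± 0.279 FPKM in knockout, against 4.01 ± 0.508 FPKM in wild type (SD, n = 4 each), and the DNA damage recognition gene Xpc to 7.03 ± 0.636 FPKM in knockout, against 15.9 ± 2.29 FPKM in wild type (SD, n = 4 each). Plk2, encoding a polo-like kinase, was the 1 gene that rose. It had 77.8, 8.74, 14.7 and 3.24 FPKM in knockout replicates 1 to 4 and 1.51, 0.448, 0.844 and 0.107 FPKM in wild-type replicates 1 to 4 (log2 fold change 3.19, limma adjusted p = 0.00478). Its highest library, knockout replicate 1, is also the one with endothelial markers at 335.6 FPKM, and the part of those cells was not tested. Without knockout replicate 4, 2 targets were called higher, and 0 were with limma-voom on recovered reads or with a filter at 5 FPKM. Plk2 fails the 5 FPKM filter and was not tested there. The apoptosis effector gene Bax was not called, with 27.7 ± 6.69 FPKM in knockout and 42.3 ± 10.5 FPKM in wild type (SD, n = 4 each, limma adjusted p = 0.0728).

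The damage sensors and mediators of ATM and ATR went both ways, with 6 of 24 tested genes higher, 7 lower and 11 not called (54.2% called, against 43.4% of all tested genes). H2afx, encoding the histone variant phosphorylated at breaks, averaged 129.7 ± 12.7 FPKM in knockout and 49.7 ± 8.59 FPKM in wild type (SD, n = 4 each, log2 fold change 1.38, limma adjusted p = 0.000179). Rnf8, whose ubiquitin ligase acts just after that phosphorylation, fell to 2.73 ± 0.560 FPKM in knockout, against 8.89 ± 0.931 FPKM in wild type (SD, n = 4 each), and its partner Rnf168 had a log2 fold change of -1.86 (limma adjusted p = 0.00236). H2afx and these ligase genes thus changed in opposite directions. On the ATR side, the clamp loader gene Rad17 rose to 22.6 ± 7.86 FPKM in knockout, against 5.71 ± 0.686 FPKM in wild type (SD, n = 4 each, limma adjusted p = 0.000396). Of the paralogs for the clamp it loads, Rad9a fell (log2 fold change -1.34, limma adjusted p = 0.00975) whereas Rad9b rose (1.72, limma adjusted p = 0.00507). Hus1b rose (2.19, limma adjusted p = 0.0362), and Hus1 was not called (-0.33, limma adjusted p = 0.387). Rad1, the third clamp subunit, rose by 0.78 (limma adjusted p = 0.0360). Libraries of the genotypes overlapped for Rad9a, Hus1b, Hus1 and Rad1, but not for Rad9b. Hus1b had 24.6, 12.9, 0.849 and 6.61 FPKM in knockout replicates 1 to 4, against 0, 1.95, 2.89 and 0 FPKM in wild-type replicates 1 to 4. The fork protection partners were split too. Tipin averaged 248.3 ± 33.9 FPKM in knockout and 67.0 ± 29.6 FPKM in wild type (SD, n = 4 each, limma adjusted p = 0.000225), while Timeless averaged 4.94 ± 1.47 FPKM in knockout and 10.3 ± 1.38 FPKM in wild type (SD, n = 4 each, limma adjusted p = 0.0130). The counts of this list were 8 higher and 6 lower with median-of-ratios scaling, 8 and 8 with quantile scaling, and 4 and 7 after the GC correction.

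Cell cycle genes downstream of the checkpoint kinases held 2 genes that rose and 6 that fell of 14 tested, with 6 not called, 57.1% called against 43.4% of all tested genes. Cdc25b, of the phosphatase class that both checkpoint kinases inhibit, averaged 0.709 ± 0.534 FPKM in knockout and 6.94 ± 1.59 FPKM in wild type (SD, n = 4 each, log2 fold change -2.25, limma adjusted p = 0.000325). The transcription factor gene E2f1 fell to 1.59 ± 0.688 FPKM in knockout, against 20.2 ± 9.54 FPKM in wild type (SD, n = 4 each). Ccna2, encoding cyclin A2, averaged 14.0 ± 9.55 FPKM in knockout and 39.0 ± 9.59 FPKM in wild type (SD, n = 4 each, limma adjusted p = 0.00632). Ccne2, encoding cyclin E2, rose to 48.7 ± 6.03 FPKM in knockout, against 12.3 ± 4.50 FPKM in wild type (SD, n = 4 each, limma adjusted p = 0.000201). Only 1 gene was called higher without knockout replicate 1, 2 or 3 or wild-type replicate 1, 3 or 4, and without the 3 libraries richest in stromal markers. All 4 lists were drawn up with earlier results of these data known, and their counts describe the lists.

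The order of the members by mean FPKM differed between the genotypes. In knockout oocytes it ran Mdm2, Chek1, Trp53, Atr, Cdkn1a, Atm, Pmaip1, Chek2, Trp63 and Bbc3, and each gene overlapped its neighbour in that order. In wild-type oocytes it ran Trp63, Chek1, Trp53, Chek2, Mdm2, Atm, Atr, Cdkn1a, Pmaip1 and Bbc3. There only Chek1 and Trp53, and Mdm2 and Atm, did not overlap as neighbours. Trp63 was the highest of the 10 in wild type and the lowest but 1 in knockout.

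Over the 8 libraries, the genes whose log2(FPKM + 1) was most like that of Trp63 were Col6a6 (Pearson r = 0.996), Mgmt (0.995), Ninj1 (0.995), Pnpla6 (0.994), Trim71 (0.994) and Kcnh1 (0.993), out of 8220 genes compared. Trim71, encoding an RNA-binding ubiquitin ligase of stem cells, had 0.137, 2.76, 0.837 and 0.930 FPKM in knockout replicates 1 to 4 and 26.5, 30.9, 30.9 and 36.1 FPKM in wild-type replicates 1 to 4, with replicate 2 the highest knockout library as for Trp63. Mgmt encodes the enzyme that removes alkyl groups from guanine, and had 7.93 ± 3.01 FPKM in knockout and 61.3 ± 7.70 FPKM in wild type (SD, n = 4 each). The genes most like Mdm2 were Trappc2 (0.996), Vps35 (0.994), Dync1li1 (0.993) and Mff (0.991), the first of which had 185, 124, 103 and 273 FPKM in knockout replicates 1 to 4 and 45.9, 51.2, 42.6 and 42.1 FPKM in wild-type replicates 1 to 4. The libraries of each genotype form a cluster, so these values mostly restate the split between genotypes and are a description.

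**Figure D5:**
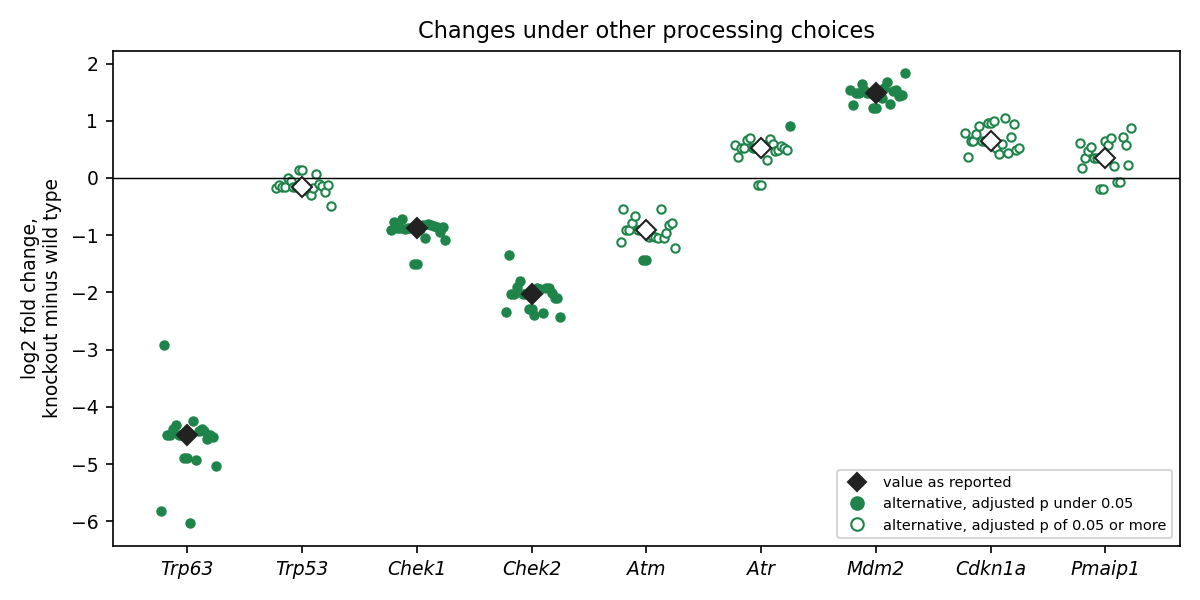
Log2 fold changes (knockout minus wild type) of the checkpoint genes as reported (diamonds) and under each alternative (circles), both filled where the limma adjusted p was under 0.05. Trp63, Chek2 and Chek1 stay below 0 and Mdm2 above 0 in all 20 alternatives, whereas Trp53, Atr and Pmaip1 have values on both sides of 0.

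The calls of Trp63, Chek2, Chek1 and Mdm2 held in each of 20 alternatives, as the plot of changes under other settings shows. Trp63 ranged from -6.03 to -2.92, Chek2 from -2.44 to -1.34, Chek1 from -1.51 to -0.72 and Mdm2 from 1.22 to 1.83. Cdkn1a was not called in any of the 20, with log2 fold changes from 0.37 to 1.05 and limma adjusted p from 0.0563 to 0.528.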

How the data were processed

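RNA of P1 mouse oocytes was measured in 8 libraries, 4 per genotype. The authors deposited FPKM values in one table of 21959 genes. Per the submitters' processing notes, cutadapt, HISAT2 and HTSeq were used with GRCm38 (mm10). For their versions, the strand setting and the annotation, the sources used here give nothing, so reads of overlapping antisense genes cannot be told apart. One label mentions a microarray, but the values are from sequencing. Symbols (21851 genes) and exon lengths came from GENCODE M21.

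Genes with at least 1 FPKM in at least 4 libraries (11235) were tested on log2(FPKM + 1) with limma 3.58.1 (R 4.3.3) and an eBayes trend, with genotype as sole term, and called at a Benjamini-Hochberg adjusted p under 0.05. Single values had exact two-sided permutation tests. FPKM times exon length came in steps of 1 read (97.4% to 97.6% of values whole within 0.02 reads). These recovered reads served for depth and for a limma-voom alternative. Floors and read numbers cover counting error only.

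Members and lists were chosen with earlier results of these data known. Named by rule were the 10 members, up to 4 called genes with the smallest p per list, and the 6 and 4 genes most like Trp63 and Mdm2 (among genes averaging 5 FPKM or more in 1 genotype). Csnk1d, Csnk1a1, Itch, Bax, Perp, Trp73, Rnf168, Rad9a, Rad9b, Rad1, Hus1, Hus1b and Timeless were named after their values were seen. The alternatives comprised other pseudocounts (0.1 and 5), filters (none, or 5 FPKM) and scalings (median-of-ratios, quantile), a replicate block, eBayes without trend, a GC correction (loess, span 0.5) and leaving out each library. The fit without 3 libraries rich in stromal markers, and the list counts under every setting, were added after seeing the data. Of the steps, the limma fit and the GC correction were tested on simulated data.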

Additional observations from a re-analysis of the deposited data

Results flagged for a closer look

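Single libraries stood apart from the other 3 of their genotype in 10 of 74 groups screened, where chance gives about 1 in 20. Knockout replicate 2 was the highest for Trp63 (3.62 FPKM), Chek1 (28.9 FPKM), Mgmt (12.4 FPKM), Ninj1 (94.8 FPKM) and Pnpla6 (2.81 FPKM). The last 3 were picked for their likeness to Trp63, so they repeat its pattern. Knockout replicate 3 was the highest for Chek2 (7.19 FPKM) and Crebbp (14.4 FPKM), knockout replicate 1 for Plk2 (77.8 FPKM). Knockout replicate 4 was the lowest for Atm (1.22 FPKM), and wild-type replicate 4 for Cdc25b (4.58 FPKM).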

How the results depend on the processing

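No member that was called lost its call or turned direction in any of the 20 alternatives. The members called higher were 2 without the 3 libraries richest in stromal markers, where Atr was added. Regulators called higher were 2 after median-of-ratios or quantile scaling, after the GC correction and without those 3 libraries. Targets called lower were 4 and higher 0 at the 5 FPKM filter, and higher 0 with limma-voom. Plk2, Tnfrsf10b, Rrm2b and Polk fail the 5 FPKM filter, so they were not tested there. Cell cycle effectors called higher were 1 with no filter, with the replicate block, without the eBayes trend, with the GC correction and block, and without the 3 libraries. With 1 library left out, effectors called higher were 1 to 3, targets higher 1 to 2, regulators higher 1 to 2, and the change of Chek2 against Chek1 -1.56 to -0.88. The cause of the other shifts was not tested.

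Over all genes 3773 to 5034 were called, against 4871 as reported (3909 to 4960 without 1 library). The median of all genes moved by 0.13 (log2) with median-of-ratios scaling, by 0.17 with quantile scaling and by 0.11 without a filter. The split of 1991 higher and 2880 lower became 2365 and 2486 with median-of-ratios scaling and 2503 and 2511 with quantile scaling. Same-numbered libraries of the genotypes deviated with correlations of 0.185, 0.0158, 0.361 and -0.0530. Differently numbered libraries deviated with correlations from -0.341 to 0.330. The reported fit treats the libraries as unpaired. So few pairs cannot show whether same-numbered tubes shared a source. With the replicate block 2113 genes were higher and 2921 lower, the log2 fold changes were the same (Trp63 -4.50), and 4 pairs allow no exact p under 0.125. Bbc3 has a value only without the filter (limma adjusted p = 0.404), and Pmaip1 none at 5 FPKM. Few reads lie behind Bbc3 and the knockout values of Trp63.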
